A study of Drosophila melanogaster with 2 samples.

Results

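Transcript levels of 9 BTB domain transcription factor genes (lola, Trl, br, psq, fru, bab2, ttk, ab and bab1) were examined in type II neuroblast lineages of the larval brain of Drosophila melanogaster. The genes were chosen by name as BTB factors of fly neural development, and all 9 were found among the 14210 genes of the deposited tables. The study asked how the transcriptome of these lineages differs when osa, a subunit gene of the SWI/SNF (Brahma) chromatin remodelling complex, is knocked down. The knockdown library came from larvae carrying UAS-CD8::GFP and the osa RNAi line 7810 of the Vienna collection, and the wild type library from larvae with UAS-CD8::GFP alone in the w1118 strain. In both, worniu-Gal4 drove the transgenes and ase-Gal80, which blocks Gal4, restricted them. The transgenes were therefore expressed where worniu-Gal4 is active and ase-Gal80 is not. Only the knockdown larvae carried an RNAi insertion. Eggs were laid over 24 h, larvae were kept for 5 days at 25 °C, brains were dissected late in the third larval instar, and strongly GFP-positive cells were sorted for polyA RNA. Per the labels, the osa RNAi sort held neuroblasts, reverted neuroblast-like cells and intermediate progenitors, and the wild type sort held neuroblasts, intermediate progenitors and ganglion mother cells without neurons. Each genotype had 1 library, so no difference between genotypes has a replicate check and no test between genotypes was possible.

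BTB factors pair through the BTB domain near the start of the protein, which also binds corepressors and other chromatin proteins, and most bind DNA through zinc fingers near the other end. They are known in the fly nervous system for holding neurons in their differentiated state, for timing by the hormone ecdysone and for repressing alternative cell fates. The 9 genes are not all zinc finger genes. lola, Trl, br, fru, ttk and ab encode C2H2 zinc fingers, whereas the products of psq, bab1 and bab2 bind DNA through helix-turn-helix domains of the Pipsqueak type.

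Several of these genes make many proteins from 1 locus by joining a shared BTB part to alternative ends, and the deposited values add all forms of a gene. In the BDGP6 annotation, lola had 24 coding transcripts with 1 translation start position and 20 stop positions. br had 16 coding transcripts with 1 start and 6 stops, and fru 15 with 5 starts and 6 stops. Trl had 3 stop positions, psq 3, ttk 2 and ab 2, whereas bab1 and bab2 had 1 each. A level given below for any gene but bab1 and bab2 therefore sums proteins with different ends, and which forms were present was not measured.

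The knockdown was visible in the targeted gene. osa stood at 15.6 FPKM (a level per transcript length and library depth) in osa RNAi and 31.3 FPKM in wild type, a 2.01-fold lower FPKM with a 95% interval of 1.91 to 2.11. Its difference in log2(FPKM + 1) was −0.96, so osa itself fell just short of the 2-fold rule given below. The deposited intervals implied 15707014 reads on genes in osa RNAi and 10114559 in wild type. All intervals cover counting error only. Of the marker genes for the sorted cells, all 6 neuroblast genes had a higher FPKM in osa RNAi. So had 3796 of all 7144 measured genes (mean of at least 1 FPKM). The 6 neuroblast genes summed to 593 FPKM in osa RNAi and 407 FPKM in wild type, with mira alone at 302 and 192 FPKM. Deposited intervals overlapped for dpn (67.3 FPKM in osa RNAi and 61.97 FPKM in wild type) and wor (89.3 and 85.2 FPKM). The 95% interval of the FPKM ratio, osa RNAi over wild type, was 1.01 to 1.17 for dpn and 0.99 to 1.11 for wor. Only pnt was past the 2-fold rule given below, at 53.3 FPKM in osa RNAi and 13.8 FPKM in wild type. The 4 ganglion mother cell genes were all lower, beside 3348 of the 7144 measured genes. These 4 summed to 58.8 FPKM in osa RNAi and 165 FPKM in wild type. The 6 intermediate progenitor genes summed to 177 FPKM in osa RNAi and 238 FPKM in wild type, but the members differed in direction. By the 2-fold rule given below, ham, opa (listed at 0 in osa RNAi), D and ey were lower. By the same rule grh was higher, at 92.2 FPKM in osa RNAi and 33.6 FPKM in wild type. Of all measured genes, 6.79% were lower and 7.78% higher by this rule. The 6 neuronal genes summed to 36.3 FPKM in osa RNAi and 53.9 FPKM in wild type, most of it from elav at 30.5 FPKM in osa RNAi and 41.3 FPKM in wild type. Snap25 was lower by the rule (0.732 FPKM in osa RNAi and 7.08 FPKM in wild type), Syt1 was higher with intervals apart (1.63 and 0.578 FPKM), and para was listed at 0 in wild type. The 6 glial genes summed to 2.40 FPKM in osa RNAi and 5.21 FPKM in wild type, with gcm and Gs2 lower, repo and wrapper listed at 0 in wild type alone, moody listed at 0 in osa RNAi alone and alrm at 0 in both. The 5 haemocyte genes found summed to 1.01 FPKM in osa RNAi and 4.63 FPKM in wild type, where He alone stood at 4.29 FPKM and was listed at 0 in osa RNAi, whereas srp and Pxn were listed at 0 in wild type. Whether the makeup of the sorts took part in any difference below was not tested.

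The 9 genes differed widely in level in both libraries. Their FPKM values summed to 365 in osa RNAi and 449 in wild type, and lola alone made up 71.5% of the sum in osa RNAi and 74.4% in wild type. The order by FPKM per gene was lola, Trl, br, psq and fru in both libraries. Below fru the order was ttk, bab2, ab and bab1 in osa RNAi, whereas in wild type bab2 stood above ttk, and ab and bab1 were both listed at 0. Neighbours in this order had deposited intervals that did not overlap, except br and psq in wild type and the pair listed at 0.

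**Figure D1:**
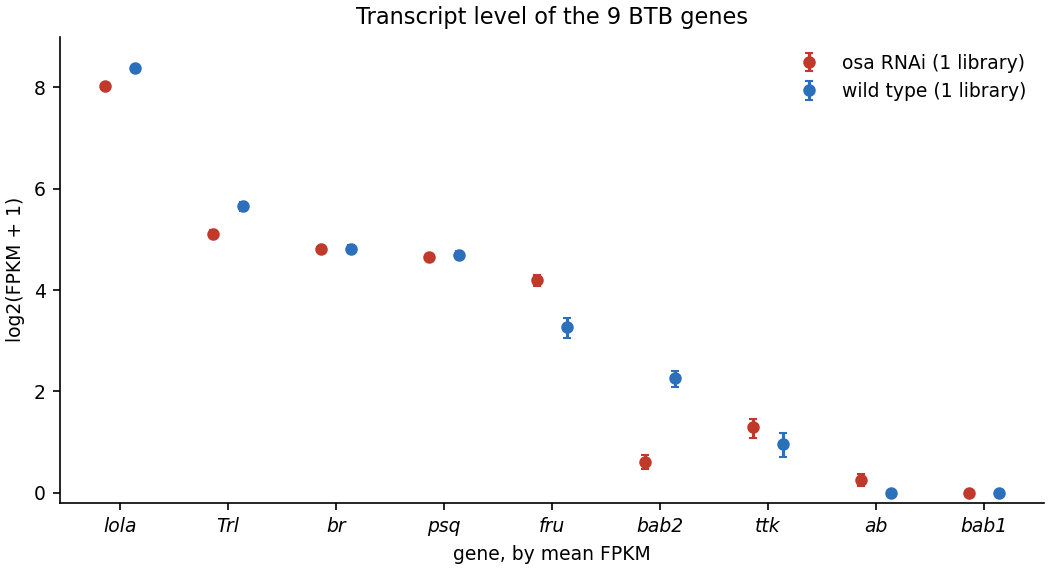
Level of each gene as log2(FPKM + 1), with 1 point per library (osa RNAi left, wild type right) and bars for the deposited interval, which covers counting error only. The genes run from lola, above 261 FPKM in both libraries, to bab1, listed at 0 in both. bab2 is lower in osa RNAi and fru is higher, while br and psq lie at almost the same level in both libraries.

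Among the 7 genes that averaged 1 FPKM or more over the libraries, bab2 was lower in osa RNAi by more than 2-fold, fru was higher by about that ratio without passing the threshold used, and the others differed less. A gene was counted as past 2-fold when its difference in log2(FPKM + 1), osa RNAi minus wild type, was at least 1 in size and its deposited intervals were apart. By this rule 1 of the 7 was lower and none was higher, beside 6.79% lower and 7.78% higher of all 7144 genes measured at that level. In either direction it was 1 of 7 beside 14.6%, a share near that of genes at large and not a result about the BTB genes as a group. Without the fold requirement, 3 of the 7 (bab2, Trl and lola) had a lower FPKM with intervals apart and 1 (fru) a higher one, beside 30% lower and 35.9% higher of all measured genes. The median difference was −0.04 for the 7 genes and 0.04 for all measured genes. None of the 9 genes was among the 15 genes of the authors' deposited table, which was filtered at a false discovery rate of 0.01. As that table held only 15 of 14210 genes, absence from it says little about any 9 genes.

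bab2 (FBgn0025525, 3L from 1140449 to 1177274 in the files' coordinates) and its neighbour bab1 (FBgn0004870, 3L from 1036369 to 1101089) are paralogs that pattern legs and antennae, shape the ovary and repress abdominal pigmentation. bab2 stood at 0.527 FPKM in osa RNAi (deposited interval 0.375 to 0.679) and 3.77 FPKM in wild type (3.27 to 4.27). The intervals were far apart, and bab2 was low in both libraries, with 91.2% of the genes above 0 exceeding it or equal to it in osa RNAi and 76.9% in wild type. Its FPKM was 7.16-fold lower (95% interval 5.25 to 9.78), a difference of −1.64 in log2(FPKM + 1). As a gene with 1 transcript in the files, bab2 had intervals that gave whole read numbers, 48 in osa RNAi and 226 in wild type. Scaled by the ratio of total implied reads (1.55, osa RNAi over wild type), the 226 reads correspond to about 351 in osa RNAi. The difference of bab2 in log2(FPKM + 1) was the 231st lowest of the 7144 measured genes. Among the 1445 measured genes with a mean below 5 FPKM, 21.1% were lower by the same rule, so genes at the level of bab2 passed it more often than genes at large. A pseudocount of 5 in place of 1 brought its difference to −0.67 and ended the call. In bulk RNA such as this, fewer cells that express a gene and less of its RNA per cell cannot be told apart.

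bab1 was listed at 0 in both libraries, so the files show no level for it. The bab genes lie 39.4 kb apart with no other gene between them in the files. Of 13 genes within 50 kb of bab2 on either side, bab1 among them, 1 was measured at a mean of at least 1 FPKM. This was Aplip1, a kinesin-linked scaffold gene of axonal transport, 19.05 kb away. Aplip1 was also lower by the 2-fold rule, at 0.546 FPKM in osa RNAi and 2.44 FPKM in wild type (difference −1.15). Beside it, 6.79% of all measured genes were lower, and 21.1% of those with a mean below 5 FPKM. Trh and CG13912, 13.1 and 12.3 kb from bab2, were listed at 0 in osa RNAi and stood at 1.62 and 1.77 FPKM in wild type, below the level required for a count. Of the 4 measured genes within 50 kb of bab1, only bab2 was past 2-fold.

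fru (FBgn0004652, 3R from 14242315 to 14371308) is known for its male-specific forms, which direct courtship behaviour, while its other forms act in both sexes. It stood at 17.3 FPKM in osa RNAi (15.98 to 18.6) and 8.62 FPKM in wild type (7.35 to 9.89). The osa RNAi library was the higher one and the intervals did not overlap. Its FPKM was 2.01-fold higher (1.71 to 2.36), with a difference of 0.93 in log2(FPKM + 1), short of the threshold of 1, and 630th highest of the 7144 measured genes. It was the highest difference of the 9 genes and passed at a threshold of 1.5-fold. Of 9 measured genes within 50 kb of fru, 2 were higher by the 2-fold rule and 1 was lower, beside 7.78% and 6.79% of all measured genes. Vha100-2 (10.8 FPKM in osa RNAi and 4.30 FPKM in wild type) and Vha100-4 (3.18 and 0.433 FPKM), both subunit genes of the vacuolar proton pump, were higher. CG7675 was lower (0.988 and 3.60 FPKM). Near lola, 1 of 9 measured genes was higher, whd (10.1 FPKM in osa RNAi and 2.49 FPKM in wild type). None passed among the measured flanking genes of ttk (14), br (7), Trl (6), ab (5) and psq (3). From so few genes nothing is drawn about the loci. No other locus overlapped that of fru.

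**Figure D2:**
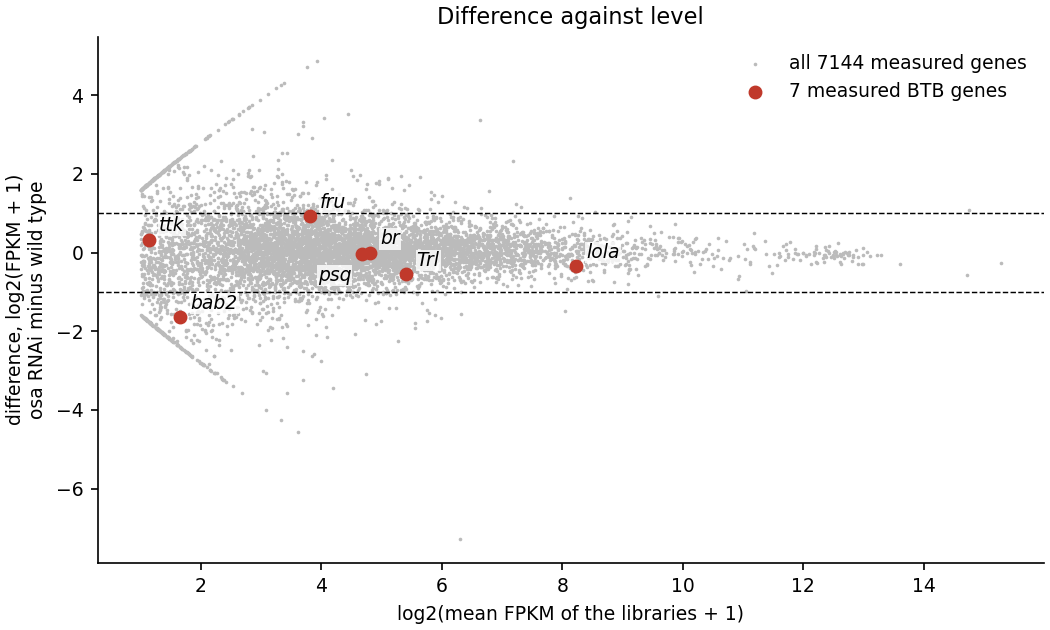
Difference in log2(FPKM + 1), osa RNAi minus wild type, against log2 of the mean FPKM + 1, with 1 grey point for each of 7144 measured genes and red points for the 7 measured BTB genes. The dashed lines mark a difference of 1 in size, the threshold of the 2-fold rule with its pseudocount of 1. bab2 lies below the lower line among low genes at −1.64, fru lies just under the upper line at 0.93, and the other BTB genes lie between the lines.

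The most abundant member, lola, was modestly lower. lola (FBgn0005630, 2R from 6369712 to 6430794) is needed for axon guidance and for keeping neurons of the larval brain differentiated. It stood at 261 FPKM in osa RNAi (257 to 266) and 334 FPKM in wild type (328 to 340). That placed it 402nd of 8314 genes above 0 in osa RNAi and 325th of 7772 in wild type. Its FPKM was 1.28-fold lower (1.25 to 1.31), a difference of −0.35, and 49.1% of measured genes had a smaller difference in size. The counting interval is narrow because many reads fell on lola, and it says nothing of how lola varies between larvae.

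The GAGA factor gene and pipsqueak, whose products both bind GAGA repeats in DNA, had different ratios between the libraries. Trl (FBgn0013263, 3L from 14741029 to 14754149) encodes the GAGA factor, which opens chromatin at promoters with remodelling complexes. It stood at 33.5 FPKM in osa RNAi (31.5 to 35.5) and 49.4 FPKM in wild type (46.2 to 52.6), with intervals apart. Its FPKM was 1.47-fold lower (1.35 to 1.61), a difference of −0.55. The locus of Trl overlaps CG42507 (22.9 FPKM in osa RNAi and 25.1 FPKM in wild type) and CG33260 (6.64 and 5.36 FPKM), so the share of reads that belongs to Trl is uncertain. psq (FBgn0263102, 2R from 6445409 to 6504785) acts in oogenesis and in silencing with Polycomb proteins. It stood at 24.1 FPKM in osa RNAi (23.05 to 25.2) and 24.8 FPKM in wild type (23.5 to 26.1), and the intervals overlapped. The FPKM ratio of psq, osa RNAi over wild type, was 0.97 (0.91 to 1.04), against 0.68 (0.62 to 0.74) for Trl. psq is the next gene beside lola in the files, 14.6 kb away, and their ratios also differed, at 0.97 for psq and 0.78 (0.76 to 0.80) for lola.

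br and ttk, known from hormone timing and from repression of neural fate, had overlapping intervals in the libraries. br (FBgn0000210, X from 1469165 to 1558700), an early gene of the ecdysone response that specifies the pupal stage, stood at 26.96 FPKM in osa RNAi (25.9 to 28.03) and 27.1 FPKM in wild type (25.7 to 28.4). Its FPKM ratio, osa RNAi over wild type, was 0.995 (0.93 to 1.06), and 0.966% of measured genes had a smaller difference in size. The locus of br overlaps Mur2B, at 0.753 FPKM in osa RNAi and 0.386 FPKM in wild type, and CG11509, listed at 0 in both. ttk (FBgn0003870, 3R from 27539591 to 27561114), a repressor of neuronal fate in the eye and sense organs, stood at 1.44 FPKM in osa RNAi (1.13 to 1.76) and 0.943 FPKM in wild type (0.621 to 1.26). Its FPKM ratio was 1.53 (1.03 to 2.28), a difference of 0.33. The bounds of both libraries overlapped between 1.13 and 1.26 FPKM, and 83.3 and 34.3 implied reads stood behind the values in osa RNAi and wild type.

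ab (FBgn0259750, 2L from 11210681 to 11261080), which shapes the dendrites of sensory neurons, was near the limit of these libraries. It stood at 0.194 FPKM in osa RNAi (0.0936 to 0.294), from 15 reads, and was listed at 0 in wild type. The locus of ab overlaps cmet, at 17.9 FPKM in osa RNAi and 17.2 FPKM in wild type, and CG32830, listed at 0 in both, so the origin of these reads is uncertain. Scaled by the ratio of total implied reads between the libraries, the 15 reads correspond to about 9.66 in wild type. Of 546 genes with 10 to 20 implied reads in osa RNAi, 62.5% were listed at 0 in wild type, and the 13 mitochondrial genes had 0 throughout, so a listed 0 does not show that a transcript was absent. No fold is given for ab.

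Other BTB genes, taken from a list of 16 names that does not contain the 9, were lower in osa RNAi more often than higher. None passed the 2-fold rule, which includes a pseudocount of 1. Of 15 found in the files, 10 were measured, and all 10 had intervals apart, 8 lower (beside 30% of all measured genes) and 2 higher (beside 35.9%). Their median difference was −0.49, against −0.04 for the 7 measured BTB genes above and 0.04 for all genes. mod(mdg4), which makes insulator proteins, stood at 344 FPKM in osa RNAi and 581 FPKM in wild type (difference −0.76). lolal, which encodes little more than a BTB domain and works with Trl and Polycomb proteins, stood at 239 and 315 FPKM (−0.40). The insulator gene Cp190 stood at 57.6 FPKM in osa RNAi and 64.2 FPKM in wild type (−0.15), and BtbVII at 17.7 and 21.2 FPKM (−0.25). chinmo, a temporal factor of early-born neurons, stood at 9.08 FPKM in osa RNAi and 14.5 FPKM in wild type (−0.62). The lowest difference was that of ken, a repressor of JAK/STAT targets named here after its values were seen, at 4.74 and 9.97 FPKM (−0.94). The FPKM of ken, without a pseudocount, was 2.11-fold lower (1.79 to 2.48). The higher pair were pfk (18.7 FPKM in osa RNAi and 13.2 FPKM in wild type, 0.47) and mamo (9.12 and 5.54 FPKM, 0.63). The level of mamo is partial, because CG11071, which RefSeq now joins to mamo, has its own row in the files, at 1.05 FPKM in osa RNAi and 1.65 FPKM in wild type.

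Of 17 genes of proteins that work with BTB factors, all measured, none passed the 2-fold rule. Their median difference was 0.17, with a range of −0.25 to 0.99. Intervals were apart for 12 of them, 10 higher (beside 35.9% of all measured genes) and 2 lower (beside 30%). The NURF remodelling complex, which the GAGA factor recruits, had Nurf-38 at 542 FPKM in osa RNAi and 417 FPKM in wild type (0.38). Of its other subunit genes, Caf1 stood at 227 and 238 FPKM (−0.07) and Iswi at 85.4 and 70.8 FPKM (0.27). E(bx), a further subunit gene named after its values were seen, stood at 46.9 and 44.1 FPKM (0.09). The FACT histone chaperone genes Ssrp and dre4 stood at 104.5 and 94.5 FPKM in osa RNAi and 81.2 and 75.96 FPKM in wild type. The corepressor gene CtBP stood at 154 FPKM in osa RNAi and 137 FPKM in wild type (0.17). The highest difference was that of corto, a chromatin gene whose product binds the GAGA factor, named after its values were seen. corto stood at 43.98 FPKM in osa RNAi and 21.6 FPKM in wild type (0.99). Its FPKM was 2.04-fold higher (1.88 to 2.21), just short of the rule with its pseudocount of 1.

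**Figure D3:**
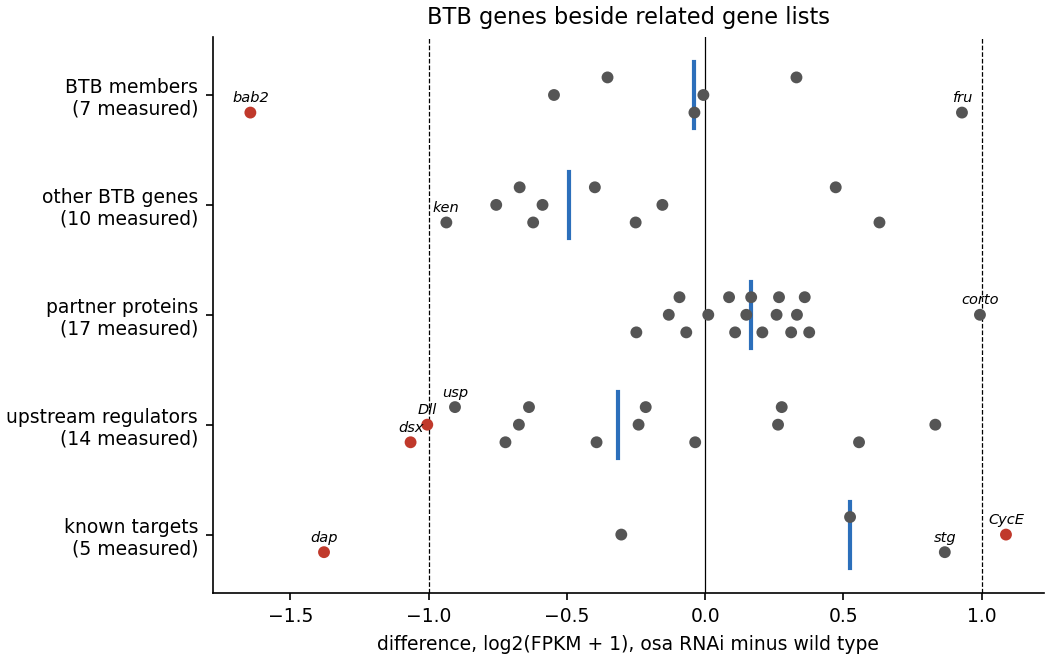
Difference in log2(FPKM + 1), osa RNAi minus wild type, of each measured gene in 5 lists. Red points are genes past the 2-fold rule and blue bars are list medians. The dashed lines mark a difference of 1 in size, the threshold of that rule with its pseudocount of 1. The BTB genes of this report spread from −1.64 to 0.93 around a median of −0.04, the other BTB genes centre on −0.49 and the partner genes on 0.17.

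Of 14 known upstream regulators, all measured, 10 had a difference below 0, as did 3348 of all 7144 measured genes, and the median difference was −0.32. By the 2-fold rule 2 were lower and none was higher, beside 6.79% lower and 7.78% higher of all measured genes, and from so few genes nothing is drawn about the list. These were dsx, a sex determination gene that acts beside fru, at 0.459 FPKM in osa RNAi and 2.05 FPKM in wild type (−1.07), and Dll, a limb gene upstream of the bab genes in the leg, at 10.7 and 22.4 FPKM (−1.005). tra and tra2, whose products direct the sex-specific splicing of fru, stood at 40.2 and 66.9 FPKM in osa RNAi and 64.7 and 111 FPKM in wild type (−0.67 and −0.72). Sxl, above them in that cascade, stood at 48.8 FPKM in osa RNAi and 64.4 FPKM in wild type (−0.39). The ecdysone receptor genes that act above br differed in opposite directions without passing the rule, EcR at 6.12 FPKM in osa RNAi and 3.0005 FPKM in wild type (0.83) and usp at 8.33 and 16.5 FPKM (−0.90), both named after their values were seen. N stood at 25.1 FPKM in osa RNAi and 20.8 FPKM in wild type (0.26), Eip93F at 13.1 and 15.4 FPKM (−0.21) and ftz-f1 at 11.8 and 14.1 FPKM (−0.24).

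Of 10 genes listed as targets, 5 were measured, and ftz, eve, en and Ubx were listed at 0 in both libraries. Among the 5, 1 was past 2-fold higher and 1 lower, beside 7.78% and 6.79% of all measured genes. CycE, which drives entry into S phase and which ttk can repress, was past 2-fold higher at 66.1 FPKM in osa RNAi and 30.6 FPKM in wild type (1.09). dap, the Cyclin E/Cdk2 inhibitor gene and also 1 of the 4 ganglion mother cell markers above, was past 2-fold lower at 7.77 FPKM in osa RNAi and 21.8 FPKM in wild type (−1.38). stg, the phosphatase gene for entry into mitosis, stood at 98.4 and 53.5 FPKM (0.87), tll at 24.9 and 17.0 FPKM (0.52) and Hsp26 at 7181 and 8862 FPKM (−0.30) in osa RNAi and wild type.

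Likeness to the members was measured as the distance in log2(FPKM + 1) over the 2 libraries, among genes that averaged 5 FPKM or more, so it covers level and difference only. The nearest genes to fru were Gga at a distance of 0.01, with 17.4 FPKM in osa RNAi and 8.69 FPKM in wild type, then CG17490 at 0.03 and CG32473 at 0.06. The nearest to bab2, itself below that level, were exo70 at a distance of 1.39, with 2.09 FPKM in osa RNAi and 8.17 FPKM in wild type, then dpr18 at 1.41 and Dms at 1.43. Genes as low as bab2, which averaged 2.15 FPKM, were left out, so these long distances follow from the filter.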

How the data were processed

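PolyA RNA of sorted cells was made into strand-marked libraries, per the labels' protocols. The authors deposited, per library, an FPKM value per gene with a lower and an upper bound and a status, per the file headers. Tools of the authors, per the submitters' processing notes, were Cufflinks 1.3.0, TopHat 1.4.1, BWA 0.6.1, DESeq 1.8.3 and HTSeq, with no roles stated. Build, annotation and any use of strand in counting were not given in the sources used here. Of 13575 gene identifiers shared with BDGP6, 2185 had the same start or end, so coordinates are the files' own, counted from 1, and BDGP6 served only for transcript counts, matched by symbol. The adjusted p-value table deposited by the authors (DESeq) was read only for which genes it holds.

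Each deposited bound was read as lying at a distance from the FPKM of 2 × FPKM/√n, with n as the implied reads; n was whole within 0.02 for 93.4% of 1018 osa RNAi and 92.8% of 846 wild type genes with 1 transcript and under 50 reads, and is an effective number for genes with more transcripts. PCR reads are not independent molecules. Ratios of FPKM have 95% intervals from n. Measured genes had a mean of at least 1 FPKM and status OK in both libraries. Differences used a pseudocount of 1, which understates low genes.

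The members, gene lists and tests were chosen with earlier results of these data known. Named genes were all members, the genes past 2-fold in each list, up to 6 more per list with the highest mean FPKM, and 3 nearest genes for the members with the highest and lowest difference; neighbours and marker genes were added. Tkr and CG16778 are 1 gene (lov) by RefSeq synonyms, and NimC1 was not matched. Alternatives were other pseudocounts, scalings, filters, fold thresholds and interval, status and overlap rules. Python 3.11.15, pandas 2.3.3, NumPy 2.4.6 and matplotlib 3.10.9 were used.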

Additional observations from a re-analysis of the deposited data

How the results depend on the processing

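With 1 library per genotype, no alternative bears on how larvae vary. The count of 1 of 7 BTB genes past 2-fold became 0 of 7 with a pseudocount of 5 and 0 of 5 at a mean of at least 5 FPKM. At 1.5-fold it was 2 of 7 (bab2 and fru), beside 2242 of all 7144 measured genes. Under the other alternatives it was 1, bab2. The count of 0 of 10 other BTB genes became 1 (ken) with a pseudocount of 0.1, beside 1292 of 7144 measured genes. At 1.5-fold it was 6 of 10, 5 lower and 1 higher, beside 1023 lower and 1219 higher of 7144. The count of all genes, 1041 of 7144, became 263 with a pseudocount of 5, 2242 at 1.5-fold and 532 at 3-fold, each of 7144. Fewer genes were measured in other settings, with 441 of 5699 at a mean of at least 5 FPKM and 571 of 4143 without overlapping loci. The median difference of the 7 measured BTB genes ranged from −0.08 to −0.03. No difference of a BTB gene changed sign in 36 alternative values, but these could hardly have changed one. A pseudocount cannot change a sign, and the scalings multiplied osa RNAi by only 0.975 and 0.971. The bab2 difference was −2.63 with a pseudocount of 0.1. No paired analysis was possible because each group has 1 library. Few reads stood behind ab (15 implied reads in osa RNAi), bab2 (48) and ttk (83.3), and bab1 was listed at 0.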
